A study of Homo sapiens with 4 samples.

Results

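The subunits of the SWI/SNF chromatin remodelling complex, also called BAF, were followed across 4 RNA-sequencing libraries of NCI-H1048, a cultured line of human small cell lung cancer that belongs to the tuft-like subtype. The members were 31 genes that encode subunits, taken by gene symbol from the normalized count tables, of 35979 gene symbols in all. They occupied 33 gene rows, because SMARCB1 and BCL7A each had 2, and rows of one symbol were summed. Of the 31 genes, 29 had a mean normalized count of at least 20 over the libraries, the minimum for inclusion, as did 14940 genes in the whole table. ACTL6B and BCL11B did not reach it.

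A SWI/SNF complex uses the energy of ATP to slide or evict nucleosomes and so opens enhancers and promoters to transcription factors. It is assembled in 3 forms that share an ATPase and some, but not all, of the subunits called core here. Canonical BAF carries an ARID1 and a DPF subunit. PBAF carries ARID2, PBRM1, BRD7 and PHF10. The non-canonical form (ncBAF) carries BRD9 and a BICRA subunit. Counts per gene do not say which form a subunit joined. Most positions can be filled by one of several paralogues, and exchange of paralogues accompanies changes of cell identity, as in the switch from neural progenitors to neurons. Small cell lung cancer cells of the tuft-like subtype are known to depend on the complex together with the transcription factor POU2F3.

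The control library came from cells with a non-targeting guide RNA (gRNA), labelled WT, and 1 library from cells with a gRNA against POU2F3, labelled POU2F3 knockout. The other 2 came from cells labelled COLCA2 knockout, each made with a different gRNA against COLCA2, a co-activator gene of POU2F3. The labels name no drug treatment, and do not say whether the cells were pools or clones. Each COLCA2 guide has 1 library, so the spread between them mixes guide with culture and may be partly technical. The libraries held between 21587741 and 29632382 reads assigned to genes.

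The targeted gene POU2F3 had a normalized count of 14602 in the control, 3677 in the first and 2351 in the second COLCA2 library, and 1449 with its own guide. COLCA2 had 5585, 3119, 3541 and 1393 in the same order. Of 10 tuft markers 7 passed the minimum, and the targeted gene POU2F3 is one of them. Without it the summed normalized count of the other 9 was 32405 in the control library, 11745 and 9158 with the COLCA2 guides and 8740 with POU2F3 gRNA. The tuft markers TRPM5, CHAT and PTGS1 were at most 13.4 in every library, and the 7 past the minimum, POU2F3 included, were at least 1.5-fold lower in both comparisons. The neuroendocrine markers INSM1 and SYP had 118.4 and 74.5 in the control, and INSM1 was between 23.8 and 35.3 and SYP between 48.2 and 60.1 in the targeted libraries. In bulk RNA, fewer cells of a type and less RNA per cell cannot be told apart, and the part that the loss of tuft markers has in the values below was not tested.

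Promoter sequence is shown for SMARCD3 and BCL11A, the subunits furthest from the control library with the COLCA2 guides. DPF1 is added, which lay furthest below the control with POU2F3 gRNA. For SMARCD3 and BCL11A, which have several windows, only the stretch around a motif match is printed. RefSeq (GRCh38.p14) gave 47 windows for 26 of the 31 genes, each of which was searched over the 250 bases before a transcription start, on both strands. The POU-factor octamer ATGCAAAT was in 0 of the 47 windows and in 1.63% of all 35116 windows. GGAATG, the core bound by TEAD factors, was in 3 windows, of BCL11A, SMARCD3 and SS18, and in 11.9% of all windows. TGANTCA, the AP-1 motif, was in 1 window, of SMARCB1, and in 6.57% of all windows. All 3 motifs were thus less frequent in the subunit windows than in all windows, and this difference was not tested. The SMARCD3 match began 96 bases before the start at position 151248694 of chromosome 7, which is the most internal of 3 RefSeq starts, and the BCL11A match began 205 bases before the start at position 60552714 of chromosome 2, 1 of 5. Both genes lie on the minus strand. All 250 bases of that SMARCD3 window lie in annotated exons, whereas 0 of the BCL11A window do. Capitals mark the motif in these lines, and the window of DPF1, a gene with a single RefSeq start, is given in full as one that held none of the 3 motifs (19 of its 250 bases lie in an annotated exon):
SMARCD3, chr7:151248775-151248800, minus strand: tatcagtgcaGGAATGcggcagccgc
BCL11A, chr2:60552904-60552929, minus strand: ttttcgaaaaGGAATGcaatgattcc
DPF1, chr19:38229696-38229945, minus strand: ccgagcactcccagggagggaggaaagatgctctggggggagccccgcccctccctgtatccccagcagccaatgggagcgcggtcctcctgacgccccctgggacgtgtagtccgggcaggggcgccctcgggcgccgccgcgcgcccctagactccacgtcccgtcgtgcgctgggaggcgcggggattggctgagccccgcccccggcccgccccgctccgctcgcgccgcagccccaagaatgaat
A match is a run of letters and not a binding site, and the files hold no binding data.

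At baseline the complex was abundantly transcribed. Per kilobase of the longest annotated coding transcript, the control library had a normalized count of 36080 for ACTB, which is cytoskeletal actin as well as a subunit, and 2415 for the ATPase SMARCA4. The core subunits SMARCC2 and SMARCC1 followed with 1615 and 1327 per kilobase, then ACTL6A with 1235 and ARID1A with 1119. The second ATPase, SMARCA2, had 289 per kilobase. Among the subunits that define a form, the library had 202 per kilobase for ARID2, 680 for PBRM1, 676 for BRD9, 133 for BICRA and 63.5 for BICRAL. DPF3 was the lowest of the 29, with 12.5 per kilobase. ACTL6B, the neuronal counterpart of ACTL6A, had between 0 and 3 reads per library, and BCL11B, a lymphoid and neural transcription factor that can join the complex, had 0 reads except for 1 with POU2F3 gRNA. At a floor of 3 reads, no difference between libraries was detectable for either gene.

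Against the control library most subunits stood slightly lower, and a few were set apart in both directions. Values of change are log2 ratios of the normalized count + 1, which understate the change of low genes. All ratios share the 1 control library, and the POU2F3 library had no replicate, so no p-value is given. A gene was counted as changed at 2-fold or, as a second rule, at 1.5-fold, and with COLCA2 both guides had to pass in the same direction. The verbs rose and fell are used for genes past the 1.5-fold rule.

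**Figure D1:**
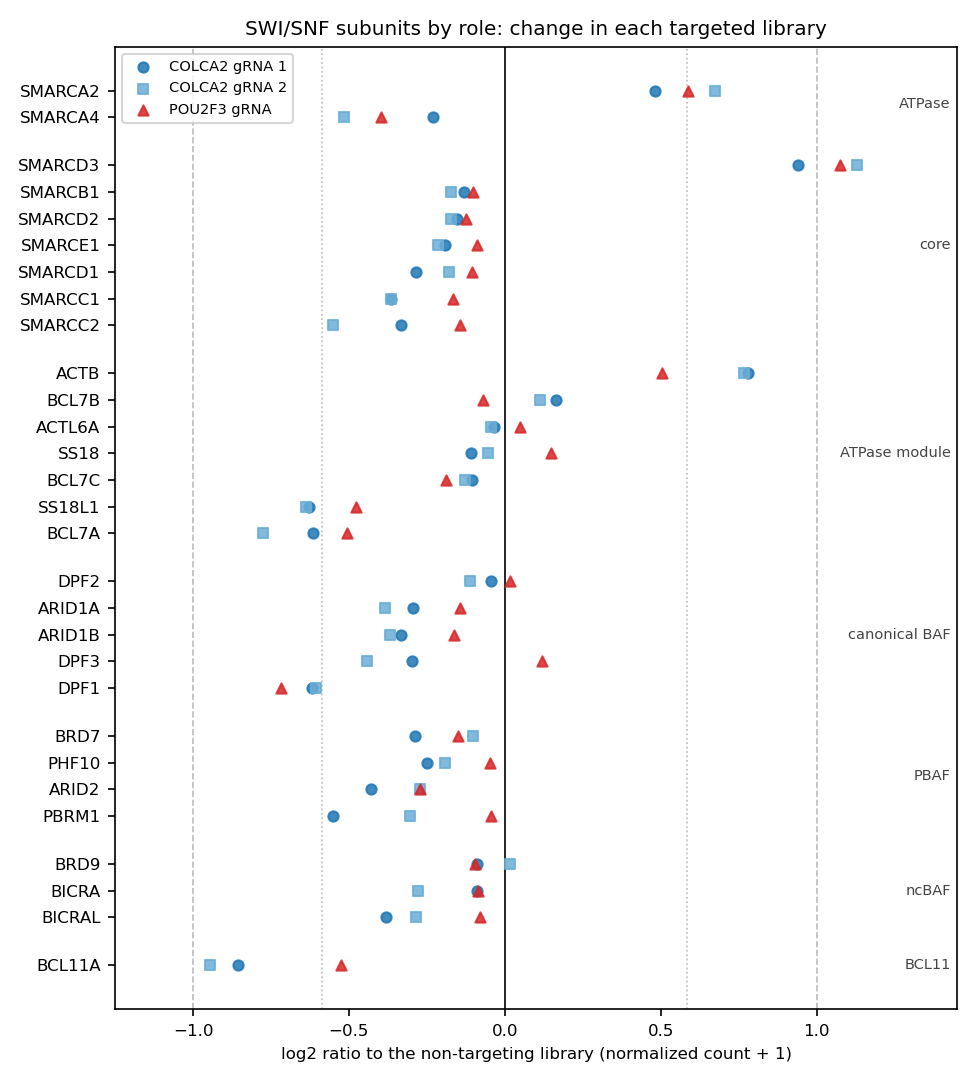
Log2 ratio to the control for each of the 29 subunits past the expression minimum, grouped by role. Each marker is 1 library, dotted lines are 1.5-fold and dashed lines 2-fold. SMARCD3, SMARCA2 and ACTB lie right of 0 in all 3 libraries, while DPF1, SS18L1, BCL7A and BCL11A lie left of 0 in all 3.

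With both COLCA2 guides, 24 of the 29 subunits were below the control library and 4 above it, and BRD9 lay on either side of it. Over all genes 41.8% were below and 41% above. The subunits had a median log2 ratio of -0.25 with gRNA 1 and -0.21 with gRNA 2, against -0.0052 and -0.0017 for all genes. With POU2F3 gRNA, 22 of the 29 were below and 7 above the control library, where all genes gave 50.4% and 49.6%, and the median was -0.10 against -0.0037. These shifts were small: a log2 ratio of -0.21 is within the 1.5-fold lines.

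**Figure D2:**
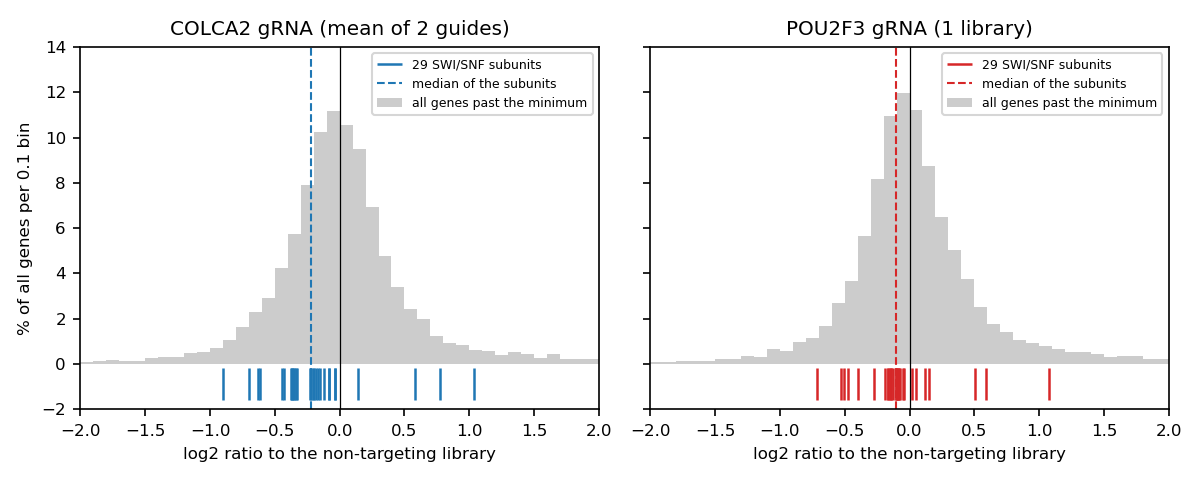
Distribution of the log2 ratio to the control library over 14940 genes (grey, percent of genes per bin of 0.1), with the 29 subunits as ticks and their median as a dashed line. The medians lie at -0.22 for the mean of the COLCA2 guides and at -0.10 for POU2F3 gRNA, left of the centre of all genes.

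No subunit was at least 2-fold apart with both COLCA2 guides, where 2.02% of all genes were lower and 5.79% higher. At 1.5-fold, DPF1, SS18L1, BCL7A and BCL11A fell (4 of 29, or 13.8%, against 6.03% of all genes) and SMARCD3 and ACTB rose (2 of 29, or 6.90%, against 9.71%). With POU2F3 gRNA only SMARCD3 was 2-fold higher and none of the 29 was 2-fold lower, against 6.73% and 3.05% of all genes. At 1.5-fold SMARCD3 and SMARCA2 rose with POU2F3 gRNA, against 12.2% of all genes, and DPF1 fell, against 7.69%. By both fold rules the shares of subunits called higher were under the background. The share called lower was above the background only for the COLCA2 guides at 1.5-fold, and the difference between the comparisons was not tested.

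An edgeR quasi-likelihood fit on the reads, in which only the COLCA2 pair leaves a residual degree of freedom and which assumes that the lone libraries vary like them, gave a wider set at an adjusted p under 0.05. For COLCA2 it called 9 subunits lower (ARID1A, ARID1B, PBRM1, DPF1, SMARCC1, SMARCC2, SS18L1, BCL7A and BCL11A) and SMARCA2, SMARCD3 and ACTB higher, with 7.51% of all genes lower and 11.4% higher. For POU2F3 it called DPF1 and BCL11A lower (2 of 29, or 6.90%, against 3.98% of all genes). It called the same 3 subunits higher (3 of 29, or 10.3%, against 8.45% of all genes). By edgeR the share called lower was thus above the background in both comparisons. The share called higher was above it for POU2F3 and, at 10.3% against 11.4%, below it for COLCA2. The POU2F3 shares rest on 2 and 3 subunits, and these differences were not tested.

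**Figure D3:**
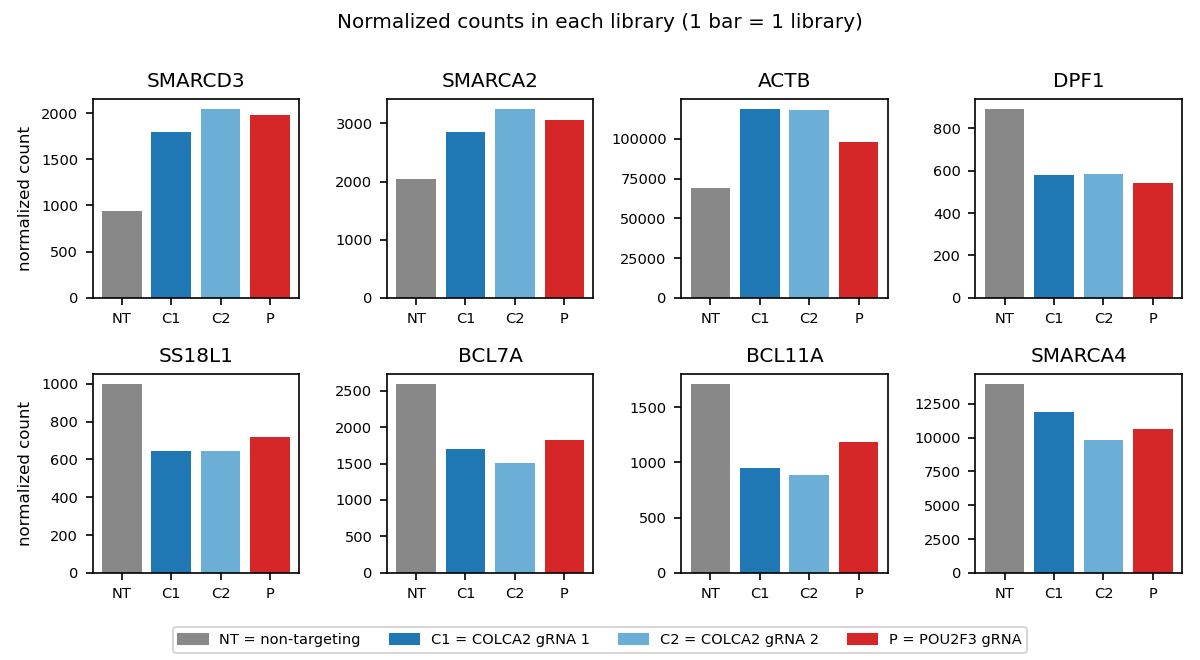
Normalized count of 8 subunits in each library, with 1 bar per library and axes that start at 0. SMARCD3 has 937 in the control library and at least 1800 in each of the others, whereas BCL11A has 1711 in the control library and at most 1188 in the others.

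Of the ATPases, SMARCA4 (BRG1) was lower and SMARCA2 (BRM) higher in all 3 targeted libraries. SMARCA4, on chromosome 19 from 10960825 to 11079426, had a normalized count of 13988 in the control, against 11911 and 9789 for the COLCA2 guides and 10623 in the POU2F3 library (positions are those of GENCODE 29, GRCh38). SMARCA2, on chromosome 9 from 1980290 to 2193624, had 2039, 2846, 3255 and 3062 in the same order. For both genes the 3 targeted libraries lay on one side of the control, and the POU2F3 library lay between the COLCA2 guides. The log2 ratio of SMARCA4 was -0.37 ± 0.20 with the COLCA2 guides (SD, n = 2) and -0.40 with POU2F3 gRNA. The log2 ratio of SMARCA2 was 0.58 ± 0.14 with the guides (SD, n = 2) and 0.59 with POU2F3 gRNA, where the count was 50.2% above the control (95% exact interval of the fold 1.42 to 1.58, for counting error alone). That value sits on the 1.5-fold line: scaling the libraries to equal totals gave 0.55 and ended the call, as did a pseudocount of 10 with 0.58.

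The ratio of SMARCA2 to SMARCA4 was 1.64-fold that of the control with COLCA2 gRNA 1, 2.28-fold with gRNA 2 and 1.98-fold with POU2F3 gRNA. The length assumed for each gene cancels from these values, but a change in its mix of transcripts would not. Per length of the longest coding transcript, SMARCA2 made up 10.7% of the pair in the control library, 16.4% and 21.4% with the guides and 19.1% with POU2F3 gRNA. The level of that share depends on the length assumed, because SMARCA2 has 42 annotated coding transcripts with a median length of 801 bases against a longest of 7061. With median lengths the share was 48.4% in the control library and 65.0% with POU2F3 gRNA. RefSeq places some SMARCA2 starts far inside the gene, and which SMARCA2 transcripts changed is not given by counts per gene.

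**Figure D4:**
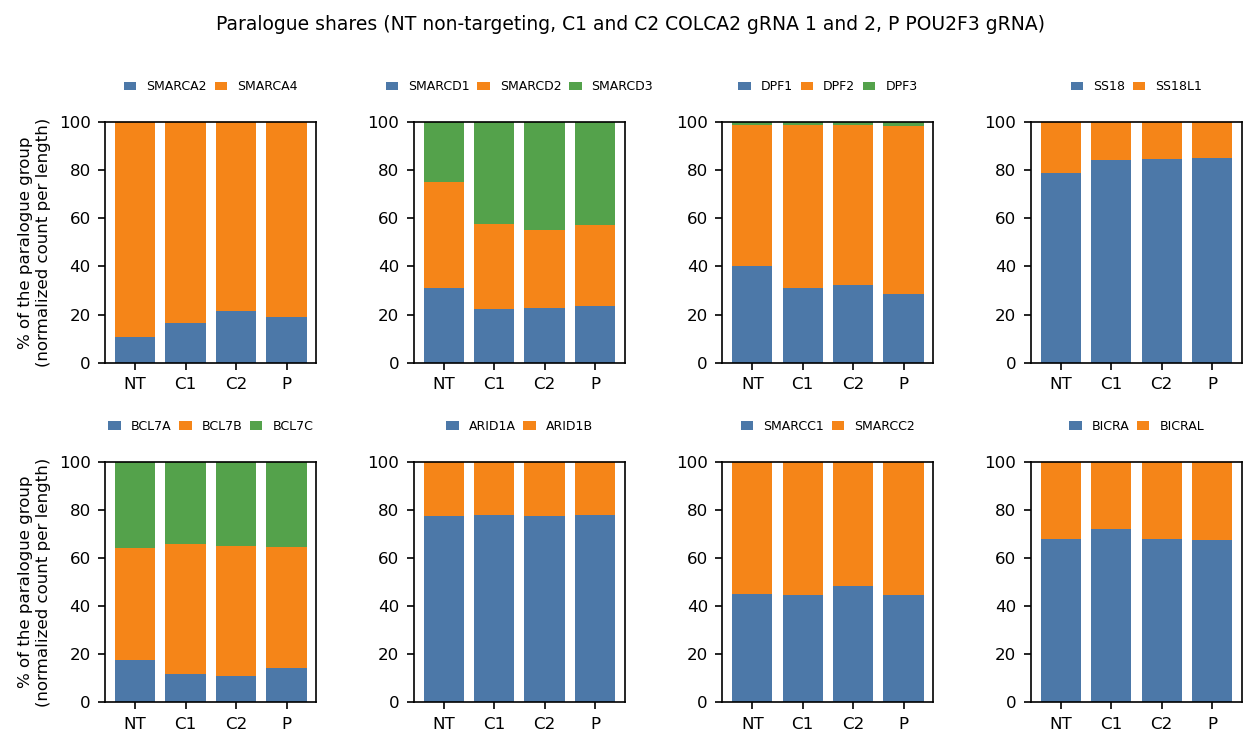
Share of each paralogue in the summed normalized count per length of its group, for 8 groups, with 1 bar per library. SMARCD3 widens from 24.7% to between 42.2% and 44.8% of its group and SMARCA2 from 10.7% to between 16.4% and 21.4%, whereas ARID1A differs by less than 1 percentage point among the libraries.

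Among the core subunits, SMARCD3 (BAF60C), the SMARCD form known from heart and muscle, moved most. The gene lies on the minus strand of chromosome 7, from 151238764 to 151277896, and shares 64 exonic bases with CHPF2 on the opposite strand. Its normalized count was 937 in the control, 1800 and 2050 with the COLCA2 guides and 1976 with POU2F3 gRNA. All 3 targeted libraries were well above the control, and they lay close together. The fold was 1.92 (95% exact interval 1.78 to 2.08) with gRNA 1, 2.19 (2.02 to 2.37) with gRNA 2 and 2.11 (1.96 to 2.27) with POU2F3 gRNA. The mean log2 ratio with the guides was 1.04 ± 0.13 (SD, n = 2), although gRNA 1 alone did not reach 2-fold. That SD holds no variation of the lone control library.

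The SMARCD paralogues that compete for the same position did not follow. SMARCD1 had 2118, 1738, 1870 and 1970 in the control, COLCA2 gRNA 1, COLCA2 gRNA 2 and POU2F3 gRNA libraries, and SMARCD2 had 2261, 2031, 2008 and 2072. Both were slightly lower in each targeted library. As a result SMARCD3 went from 24.7% of the group per length to 43.5% ± 1.9 (SD, n = 2) with the COLCA2 guides and 42.9% with POU2F3 gRNA, and SMARCD2 from 44.4% to 34.0% ± 1.9 (SD, n = 2) and 33.5%. These levels depend on the length assumed: with median lengths SMARCD3 went from 16.3% in the control to 31.5% for the guides and 30.8% with POU2F3 gRNA. The ratio of SMARCD2 to SMARCD1 was 1.09-fold, 1.01-fold and 0.99-fold that of the control.

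The other core subunits were lower and stayed within 1.5-fold. SMARCC2, a scaffold subunit, had -0.44 ± 0.16 on the log2 scale with the COLCA2 guides (SD, n = 2) and -0.14 with POU2F3 gRNA, and its paralogue SMARCC1 had -0.37 ± 0.0014 (SD, n = 2) and -0.17. SMARCE1, which binds DNA through an HMG domain, had -0.20 ± 0.015 (SD, n = 2) and -0.088. SMARCC2 shares 514 exonic bases with MYL6 on the opposite strand, an abundant gene, and SMARCE1 shares 3697 with the locus AC073508.2 on its own strand, so their counts are uncertain to the extent that reads were split between the genes; use of the strand is not given in the sources used here.

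SMARCB1 (INI1), the subunit that contacts the nucleosome surface, shows how rows bear on a value. The row on the primary assembly gave 431, 116, 386 and 245 normalized counts in the control, COLCA2 gRNA 1, COLCA2 gRNA 2 and POU2F3 gRNA libraries, whereas a second row of the same symbol, whose identifier is not among the primary assembly genes of GENCODE 29, had 5164, 4990, 4583 and 4967. The primary row thus held between 2.27% and 7.76% of the reads. Alone it gave log2 ratios of -1.88, -0.16 and -0.81, while the sum gave -0.13, -0.17 and -0.10. SMARCB1 therefore differed by little in the sum, and a large apparent loss with gRNA 1 belonged to 1 row.

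**Figure D5:**
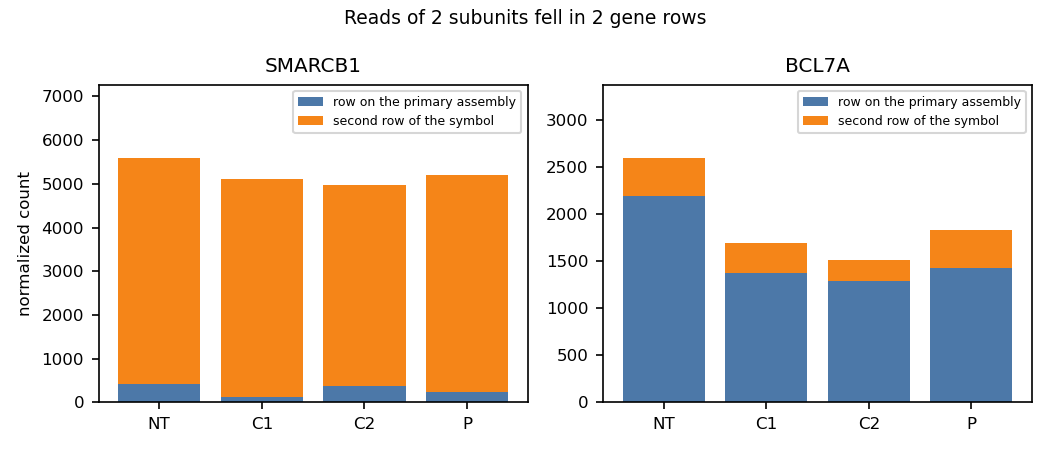
Normalized counts of SMARCB1 and BCL7A in each library (NT non-targeting, C1 and C2 COLCA2 gRNA 1 and 2, P POU2F3 gRNA), stacked by gene row. The second SMARCB1 row holds between 92.2% and 97.7% of the gene's reads, and the second BCL7A row between 15.1% and 22.0%.

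In the ATPase module, ACTB was higher and SS18L1 and BCL7A lower in every targeted library. ACTB had 69309 in the control library, 119035 and 117908 with the COLCA2 guides and 98296 with POU2F3 gRNA. The guides lay close together and above the POU2F3 library, with a mean log2 ratio of 0.77 ± 0.0097 (SD, n = 2) against 0.50. Actin genes and processed copies are near-identical, so reads may be split among them. Because ACTB outweighs the other subunits, the summed normalized count of the 31 genes was 162329 in the control library and between 183330 and 198325 in the targeted ones, whereas without ACTB it was 93019 against 79290 and 77203 with the COLCA2 guides and 85035 with POU2F3 gRNA.

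SS18L1 (CREST), the paralogue of SS18 that neuronal complexes carry, lies on chromosome 20 from 62143795 to 62182484 and had 1001 in the control library, 647 and 643 with the COLCA2 guides and 719 with POU2F3 gRNA. SS18, the general form, had 2829, 2625, 2723 and 3137. SS18L1 was lower in each targeted library while SS18 lay on both sides of the control. Per length, SS18L1 went from 21.2% of the pair to 15.5% ± 0.39 (SD, n = 2) with the guides and 14.8% with POU2F3 gRNA. ACTL6A, the actin-related subunit, had 2347, 2292, 2276 and 2428, and differed by at most 0.049 on the log2 scale.

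BCL7A, one of 3 BCL7 subunits and encoded on chromosome 12 from 122019422 to 122062044, had 2595, 1693, 1514 and 1828 in the control, COLCA2 gRNA 1, COLCA2 gRNA 2 and POU2F3 gRNA libraries. Its log2 ratio was -0.70 ± 0.11 with the guides (SD, n = 2) and -0.50 with POU2F3 gRNA, and the row on the primary assembly alone gave -0.62 with POU2F3 gRNA, past 1.5-fold. BCL7B had 2149, 2409, 2323 and 2045, and BCL7C had 2006, 1863, 1835 and 1758. Of the 3, only BCL7A passed 1.5-fold, with both COLCA2 guides, and its share per length went from 17.8% to 11.5% ± 0.60 (SD, n = 2) and 14.2%. With no length the BCL7A share was 38.4% in the control, 28.4% and 26.7% with the guides and 32.5% with POU2F3 gRNA.

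Of the subunits of canonical BAF, the transcripts of ARID1A and ARID1B, which encode DNA-binding proteins, kept nearly the same ratio, whereas the ratio of DPF1 to DPF2, which encode histone readers, was between 0.60-fold and 0.71-fold that of the control. ARID1A had 9607 in the control library, 7840 and 7368 with the COLCA2 guides and 8696 with POU2F3 gRNA, and ARID1B had 3504, 2780, 2713 and 3128. Both were lower in each targeted library by similar factors. The log2 ratio of ARID1A was -0.34 ± 0.063 with the guides (SD, n = 2) and -0.14 with POU2F3 gRNA, that of ARID1B -0.35 ± 0.025 (SD, n = 2) and -0.16, and the ratio of ARID1B to ARID1A was between 0.97-fold and 1.01-fold that of the control.

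DPF1, a DPF form of neuronal complexes that is encoded on the minus strand of chromosome 19 from 38211006 to 38229714, had 894 in the control library, 582 and 587 with the COLCA2 guides and 543 with POU2F3 gRNA. It was the subunit with the largest fall with POU2F3 gRNA, to 0.61 of the control (95% exact interval 0.55 to 0.67), and the guides agreed closely, with a log2 ratio of -0.61 ± 0.0091 (SD, n = 2). DPF2, the ubiquitous form, had 1553, 1504, 1436 and 1571. DPF1 made up 40.1% of the DPF group per length in the control, 31.7% ± 0.86 with the guides (SD, n = 2) and 28.6% with POU2F3 gRNA, and DPF2 58.6%, 67.1% ± 0.80 (SD, n = 2) and 69.7%. DPF3 had between 35 and 73 reads per library, and each of its exact intervals of the fold included 1.

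The subunits of PBAF and ncBAF stayed within 1.5-fold in every library. PBRM1, which reads acetylated histones through a row of bromodomains, had 5114 in the control library, 3491 and 4137 with the COLCA2 guides and 4955 with POU2F3 gRNA. It was lower with the guides, by -0.43 ± 0.17 on the log2 scale (SD, n = 2), and had -0.045 with POU2F3 gRNA. ARID2 had -0.35 ± 0.11 (SD, n = 2) and -0.27, PHF10 -0.22 ± 0.041 and -0.048, and BRD7 -0.20 ± 0.13 and -0.15. BRD7 shares 3593 exonic bases with ADCY7 on the opposite strand. In ncBAF the bromodomain subunit BRD9 had 1458, 1370, 1475 and 1365 across the control, COLCA2 gRNA 1, COLCA2 gRNA 2 and POU2F3 gRNA libraries, so that the control lay within the range of the guides. BICRA had -0.18 ± 0.13 (SD, n = 2) and -0.085, and BICRAL -0.33 ± 0.067 (SD, n = 2) and -0.080.

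BCL11A, a zinc-finger transcription factor that joins the complex and is best known as a repressor of fetal haemoglobin, had the largest fall with the COLCA2 guides. The gene lies on the minus strand of chromosome 2, from 60450520 to 60555154. It had 1711 in the control, 944 and 888 with the guides and 1188 with POU2F3 gRNA. All 3 were below the control, and the guides lay below the POU2F3 library. The log2 ratio was -0.90 ± 0.063 (SD, n = 2) with the guides and -0.53 with POU2F3 gRNA, short of 1.5-fold.

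The POU2F3 library was set against the COLCA2 libraries directly, which leaves the shared control out. None of the 29 subunits lay 1.5-fold beyond both guides, where 2.5% of all genes were lower and 1.92% higher. Without a fold minimum, 19 subunits were above both guides and 5 below them (BRD9, DPF1, ACTB, BCL7B and BCL7C), against 35.6% and 38.9% of all genes. The median difference was 0.099 on the log2 scale, with -0.0039 for all genes. DPF3, with at most 73 reads in a library, had the largest difference, 0.49, with an SD of 0.10 between the guides. The differences were 0.38 for PBRM1, 0.37 for BCL11A, 0.30 for SMARCC2 and -0.27 for ACTB. In that order the SDs between the guides were 0.17, 0.063, 0.16 and 0.0097. For SMARCD3 and SMARCA2 the differences were 0.041 and 0.0086, smaller than the SDs of 0.13 and 0.14. These SDs hold no variation of the lone POU2F3 library, so a difference above its SD may still be noise.

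The guides themselves did not differ by 1.5-fold at any of the 29 subunits, where 3.86% of all genes were lower and 3.18% higher with gRNA 1 than with gRNA 2. The largest gap was 0.28 for SMARCA4, and the median absolute gap was 0.089, against 0.13 for all genes.

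Other chromatin regulators give a scale for these shifts. Of 20 genes of other remodellers (the ISWI, CHD and INO80 families and relatives), all passed the minimum, and the median log2 ratio was -0.28 for the mean of the COLCA2 guides and -0.16 with POU2F3 gRNA. Both guides put 16 of the 20 below the control, and so did POU2F3 gRNA. CHD7, a remodeller of developmental enhancers, had 1628 in the control library, 768 and 729 with the guides and 658 with POU2F3 gRNA, and was the only one 2-fold lower with both guides. CHD5, a neural remodeller with 43.0 in the control, was 2-fold lower with POU2F3 gRNA at 8.39, but the guides gave 8.29 and 32.9. Of 20 Polycomb genes, whose complexes silence chromatin in opposition to SWI/SNF, the medians were -0.16 and -0.088, and none was 2-fold apart in either comparison. JARID2, an accessory subunit that recruits Polycomb repressive complex 2 and was named after its values were seen, came nearest, with log2 ratios of -0.90, -1.05 and -0.95 in COLCA2 gRNA 1, COLCA2 gRNA 2 and POU2F3 gRNA. The medians of the SWI/SNF subunits lay within the range of these lists.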

How the data were processed

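Poly(A) RNA of 4 libraries was analysed. The authors deposited a normalized count for every gene, which is a linear signal per the file headers. Salmon, DESeq2 and the build hg38 are named in the submitters' processing notes with no role given; the settings are not given in the sources used here. Division by 1 step per library turned 100% of the values into whole reads (tolerance 0.01 reads). Rows of one symbol were summed, because 1149 symbols had more than 1 row.

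Log2 ratios used a pseudocount of 1 and genes with a mean of at least 20. Exact (Clopper-Pearson) 95% intervals of a ratio of reads cover counting error only. Shares of paralogues used the longest coding transcript in GENCODE 29 (GRCh38), and gene positions and exon overlaps came from there. Promoter windows were RefSeq's. As an alternative, edgeR 4.0.16 (R 4.3.3) was run across all genes on the reads with 3 groups, TMM and Benjamini-Hochberg adjustment at 0.05; it called 1858 genes for POU2F3 and 2831 for COLCA2. The fold rule and edgeR were tested on simulated data. All simulated libraries varied alike, so whether the lone libraries vary like the COLCA2 pair was not tested.

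The text gives every member, the targeted genes and, from the lists of other remodellers and Polycomb genes, those 2-fold apart, at most 4 per list. Cell type markers are given as sums or levels for background. The members and lists were chosen with earlier results of these data known. One gene of the marker lists is not reported here.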

Additional observations from a re-analysis of the deposited data

Results flagged for a closer look

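At 5 subunits both COLCA2 guides lay on one side of the non-targeting library and POU2F3 gRNA on the other. The difference, POU2F3 gRNA minus the mean of the guides on the log2 scale, was 0.49 for DPF3, 0.23 for SS18, 0.096 for DPF2, 0.088 for ACTL6A and -0.21 for BCL7B. None of these differences was tested, each rests on 1 POU2F3 library, and DPF3 had at most 73 reads in a library.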

How the results depend on the processing

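No paired analysis was possible because POU2F3 gRNA and the control have 1 library each. The values below are counts that moved by over 1.5 times and medians or shares that moved beyond the SD of the guides. No member median changed sign under any alternative run, nor did the ratio of any of the 7 subunits past 1.5-fold. The cause of the changes below was not tested unless the setting itself gives it.

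With 1.5-fold in place of 2-fold, the 1 subunit called for POU2F3 became 3 and the 0 for COLCA2 became 6; edgeR called 5 and 12. Over all genes, 1460 were at least 2-fold apart for POU2F3, 1167 for both COLCA2 guides, 204 for POU2F3 beyond both guides and 331 between the guides. At 1.5-fold these were 2971, 2352, 660 and 1051; without an expression minimum 4190, 2885, 1603 and 4668; with a mean of at least 100, 864, 757, 73 and 54. edgeR called 2831 genes for COLCA2 and 51 for POU2F3 against COLCA2, and a pseudocount of 10 left 205 between the guides.

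Leaving out a guide gave 0 to 1 subunits at 2-fold for COLCA2 (SMARCD3, without gRNA 1), 460 to 473 genes for POU2F3 beyond the remaining guide, COLCA2 medians of -0.25 to -0.21 (-0.24 to -0.21 relative to all genes) and POU2F3 minus COLCA2 medians of 0.13 (0.126 to 0.135, and 0.139 to 0.141 relative to all genes). Equal totals moved the medians to -0.14 for POU2F3, -0.29 for COLCA2 and 0.13 for their difference, and the median of all genes by the same amount, so the values relative to all genes stayed.

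With median transcript lengths the SMARCA2 share was 48.4% in the control, 64.4% for COLCA2 and 65.0% for POU2F3, and the SMARCD3 share 16.3%, 31.5% and 30.8%. With no length the SMARCD3 share was 17.6%, 33.5% and 32.8%. These length settings were added after seeing the data.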
